A study of Danio rerio with 20 samples.

Results

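Cells of the zebrafish AGM at 36 hpf were compared between embryos treated with LY294002 and control embryos. The comparison used 9 of the 20 plates of the series, of which 5 came from treated embryos (L1 to L5) and 4 from controls (C1 to C4). They were chosen by their labels, and 3 further AGM plates that held cells of both treatments were left out. LY294002 inhibits phosphatidylinositol 3-kinase (PI3K). All embryos carried the transgenes tg(kdrl:mCherry-CAAX/cd41:eGFP) and the labels call the control embryos wild-type. Cells were pooled from embryos of one treatment, and mCherry-positive cells with low eGFP were sorted singly into plates of 384 wells for SORT-seq, which counts transcripts of each cell by unique molecular identifiers (UMIs). Plates L1, L2, C1 and C2 were sorted on days 1 to 4, and plates L3, L4, L5, C3 and C4 on days 10 to 12. Plates L1 and L2 were sorted on day 4 and C1 and C2 on day 1. Of the later plates, L3 and L5 were sorted on day 11 and L4 on days 11 and 12, while C3 was sorted on day 10 and C4 on days 10 and 11. Treatment and sort day therefore cannot be told apart on days 1 to 4 and are in part tied on days 10 to 12.

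The AGM (aorta-gonad-mesonephros) is the region in which hematopoietic stem and progenitor cells (HSPCs) emerge from the floor of the dorsal aorta by endothelial to hematopoietic transition (EHT). PI3K makes the lipid that recruits the kinase Akt to the membrane, and active Akt keeps FoxO transcription factors out of the nucleus and promotes mTOR signaling and protein synthesis. Notch signaling specifies arterial and hemogenic endothelium, with Dll4 as an arterial ligand and the Her and Hey repressors as targets.

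A well counted as a cell from 1500 UMIs on, which gave 2840 cells of 3456 wells, 1519 from LY294002 plates and 1321 from control plates. A plate held 122 to 378 cells and 1837137 to 5366929 UMIs. Plate L5 had the fewest cells, with 245 wells under 500 UMIs. The cells had a median depth of 10147, 12533, 9022, 5575 and 13189 UMIs on plates L1 to L5, against 9289, 10747, 13444 and 13170 on plates C1 to C4. The 2 reporter genes gave little check of the sort, because kdrl was matched to none of the IDs, and itga2b (cd41) had 10 UMIs over all 9 plates. In contrast, lyz, a lysozyme gene of neutrophils and a marker that the sort did not aim at, had UMIs in 99.8% ± 0.31 of the cells of LY294002 plates and in 98.7% ± 2.05 of the cells of control plates (mean ± SD over plates).

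To describe what the plates held, cells were placed in 5 gates by the level of marker genes, in counts per 1000000 UMIs of the cell (CPM). The gates, taken in this order, were lyz-high (at least 20000 CPM), mfap4-high (a macrophage gene, at least 1000 CPM), cdh5-high (VE-cadherin of endothelium, at least 400 CPM), skin keratin-high (at least 5000 CPM over 7 keratins) and remaining. A gate is a range of values and not a cell type: of 790 lyz-high cells, 57 left the gate when all limits were doubled.

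The lyz-high share was higher on every LY294002 plate than on any control plate. It was 31.4, 35.3, 31.8, 42.1 and 47.5% on plates L1 to L5, against 13.2, 11.5, 19.8 and 25.7% on plates C1 to C4. Plate L1 was the lowest of the LY294002 plates and C4 the highest of the control plates. The mean was 37.6% ± 7.0 on LY294002 plates (SD, n = 5) and 17.5% ± 6.5 on control plates (SD, n = 4), a difference of 20.1 percentage points (exact permutation test, two-sided, p = 0.0159, the smallest value that 5 plates against 4 allow, and 0.0794 when adjusted over the 5 gates). The difference did not pass the threshold of 0.05 after adjustment. The means were 33.3% against 12.3% on days 1 to 4 and 40.5% against 22.7% on days 10 to 12.

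The cdh5-high share was unevenly spread over the sort periods. It was 9.76, 8.82, 1.72, 1.15 and 6.56% on plates L1 to L5, against 26.7, 20.8, 2.12 and 2.65% on plates C1 to C4. The LY294002 plates were lower on days 1 to 4, with a mean of 9.29% against 23.8%, while on days 10 to 12 the means were 3.14% and 2.38%. The difference over all plates was -7.48 points (exact permutation p = 0.254). The mean mfap4-high share was 16.2% on LY294002 plates and 16.9% on control plates (exact permutation p = 0.778), and the remaining share was 34.3% and 44.6% (p = 0.0952). Skin keratin-high cells made up at most 0.621% of any plate of days 1 to 4 and between 4.92 and 21.4% of the plates of days 10 to 12.

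**Figure D1:**
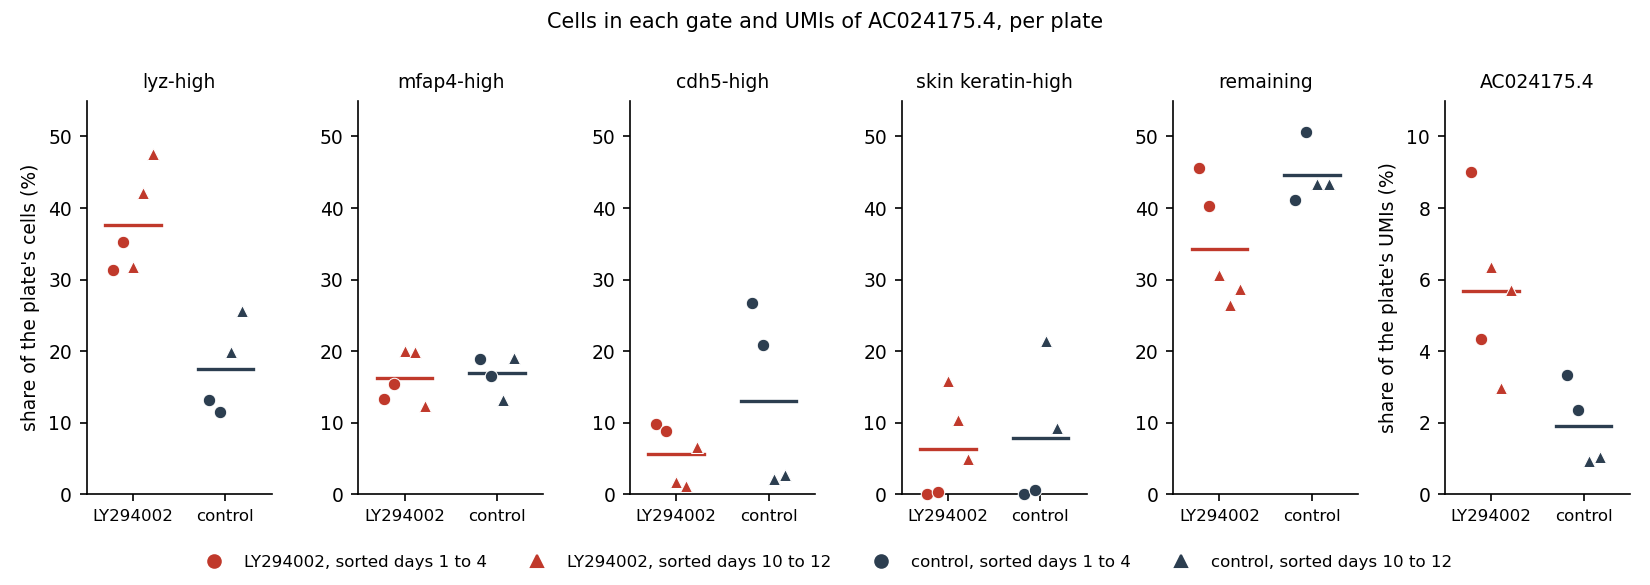
Percent of the cells of each plate in the 5 gates, and percent of UMIs of the mitochondrial ribosomal RNA gene AC024175.4, for LY294002 plates (left) and control plates (right); circles are plates of days 1 to 4, triangles plates of days 10 to 12, and bars the mean. The lyz-high share was 31.4 to 47.5% on LY294002 plates, all above the 11.5 to 25.7% of control plates, and the cdh5-high share was highest on the control plates C1 and C2.

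To find which genes differed between treatments, the counts of all cells of a plate were summed and the plate was the replicate. Genes were tested with the quasi-likelihood test of edgeR, with the sort period as a term and Benjamini-Hochberg adjustment over 12996 genes. Levels below are CPM scaled by edgeR's TMM factors, and the fold change is log2 of LY294002 over control ± its standard error. The p-values measure the spread between plates of pooled cells, which may be technical. In such sums, a change in the number of cells of a type and a change of RNA per cell cannot be told apart.

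At an adjusted p under 0.05, 40 genes (0.308%) differed, 30 higher (0.231%) and 10 lower (0.0769%) on LY294002 plates. Their adjusted p-values lay between 0.0165 and 0.0498, and 31 more genes were between 0.05 and 0.06, so that many calls were near the threshold. The LY294002 plates did not overlap the control plates for 23 of the 30 higher and 4 of the 10 lower genes, while over all genes 2.36% lay entirely above and 2.72% entirely below. All 40 genes kept their direction in every alternative over all cells, but the count depended on single plates: it was 0 without L1, L2, L4 or C3, 2 without C2 or C4, 10 without L5 and 726 without C1. It was 602 by DESeq2 (2.95% of all genes higher and 1.69% lower) and 0 without the term for sort period, in which 1473 genes had an unadjusted p under 0.05.

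Neutrophil genes were among those that rose. Of the neutrophil list, 23 of 25 genes were abundant enough to be tested. The level of all 23 was higher on LY294002 plates (48.2% of all genes had a log2 fold change above 0). Of them 4 passed the edgeR test (0.231% of all genes) and 18 had an unadjusted p under 0.05, against 7.96% of all genes. By DESeq2 12 were higher (2.95% of all genes). The median log2 fold change was 0.65, beside -0.02 over all genes. The list was drawn up with earlier results of these data known and is not independent evidence of its direction.

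The secreted factor gene lect2l, a chemotaxin-like gene expressed in zebrafish neutrophils, had 807.5, 932, 862.7, 945.1 and 924.3 CPM on plates L1 to L5, against 351.2, 246.2, 436.9 and 590.9 CPM on plates C1 to C4. The groups did not overlap, and the lowest LY294002 plate was above the highest control plate, C4. This gave a log2 fold change of 1.15 ± 0.19 (edgeR, adjusted p = 0.0493).

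Transcripts of csf3r, the receptor for granulocyte colony-stimulating factor, were scarce. They reached 26.2, 16.1, 10.1, 8.86 and 16.5 CPM on plates L1 to L5, against 7.39, 5.65, 2.06 and 2.15 CPM on plates C1 to C4. The LY294002 plates were again all above, but the lowest of them, L4, was close to the highest control plate, C1. The log2 fold change of csf3r was 2.07 ± 0.31 (edgeR, adjusted p = 0.0493).

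The membrane protease gene adam8a had 284.1, 283.3, 397.1, 289 and 355.9 CPM on plates L1 to L5, against 142.3, 119.9, 172.9 and 237.7 CPM on plates C1 to C4, a log2 fold change of 0.92 ± 0.16 (edgeR, adjusted p = 0.0498). The gene ch25hl2, named for its likeness to cholesterol 25-hydroxylase, had 522, 519, 386.1, 514.7 and 672.8 CPM on plates L1 to L5, against 290.2, 260.9, 254.5 and 256.1 CPM on plates C1 to C4, a log2 fold change of 0.98 ± 0.16 (edgeR, adjusted p = 0.0493). Neither gene had overlapping groups, and the control plates were nearly level for ch25hl2.

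Best-known genes of neutrophil granules came close to the threshold without passing it. Myeloperoxidase (mpx) had 2977, 2698, 2956, 3214 and 3161 CPM on plates L1 to L5, against 1260, 903.8, 1764 and 2193 CPM on plates C1 to C4. All LY294002 plates were above all control plates, and the log2 fold change was 0.98 ± 0.18 (edgeR, adjusted p = 0.0571). For npsn, a nephrosin protease gene, it was 0.95 (adjusted p = 0.0698), and for lyz 0.82 (adjusted p = 0.0841).

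The neutrophil list was also measured with the lyz-high share taken away or held nearly equal. The gate was set on lyz, itself a gene of the list, so a lower value is in part fixed by how the cells were chosen. When lyz-high cells were left out, 18 of the 23 genes had a log2 fold change above 0 and the median was 0.33. The median was 0.03 when the gates with at least 5 cells on a plate were weighted equally (limma on log2 of CPM plus 5). This left out skin keratin-high cells on L1, L2, C1 and C2 and cdh5-high cells on L4, so the weight of a gate differed somewhat between plates. Within lyz-high cells the median was 0.06, and mpx had a log2 fold change of 0.13 ± 0.16 (edgeR, adjusted p = 0.851) and lect2l of 0.36 ± 0.15 (adjusted p = 0.469). In mfap4-high, remaining and skin keratin-high cells the median of the list was 0.36, 0.30 and 0.59, and in the cdh5-high cells of days 1 to 4 it was 0.77. The part of free transcripts of lyz-high cells in these values was not tested.

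Other genes that rose belonged to none of the cell type lists, which does not set them apart from cell makeup. The median log2 fold change of all 30 genes called higher, the neutrophil genes among them, was 1.24 over all cells. It was 1.01 without lyz-high cells and 0.59 with gates weighted equally. Within lyz-high cells it was 0.62 and within remaining cells 0.92, over the genes with a value there. The gene hpgd, whose product inactivates prostaglandins, had 61.9, 69.7, 119.9, 119.8 and 136.7 CPM on plates L1 to L5, against 22.2, 21.1, 47.3 and 61.6 CPM on plates C1 to C4. The groups were separate but nearly touched (L1 and C4), and within each sort period the gap was wide. Of the genes that rose, hpgd had the smallest adjusted p, with a log2 fold change of 1.38 ± 0.15 (edgeR, adjusted p = 0.0165). The histone deacetylase gene hdac9b and the lipid hydrolase gene abhd2a both had a log2 fold change of 1.17, with no overlap of the plates. Also without overlap were si:ch211-136m16.8 (1.41), si:dkey-238m4.4 (1.31) and the unnamed ENSDARG00000060520 (1.99), ENSDARG00000075761 (1.47), ENSDARG00000045202 (1.099) and ENSDARG00000068613 (1.06). The edgeR adjusted p of these genes was between 0.0383 for si:ch211-136m16.8 and 0.0498 for hdac9b. The leukotriene pathway gene alox5ap, chosen after its values were seen, had a log2 fold change of 1.03 ± 0.17 (adjusted p = 0.0493). Under the alternatives over all cells, the lowest log2 fold change was 0.10 for ENSDARG00000068613, 0.34 for alox5ap and 0.37 for abhd2a. It was 0.44 for ENSDARG00000075761, 0.46 for hpgd and between 0.50 and 1.18 for the other genes named here.

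The small GTPase gene rab8a, which acts in vesicle transport, had 67.3, 48.3, 15.9, 19.8 and 36.0 CPM on plates L1 to L5, against 13.3, 11.5, 9.19 and 9.39 CPM on plates C1 to C4. The groups did not overlap, and L1 and L2 stood highest. Its log2 fold change was 1.75 ± 0.29. The cystine transporter gene slc7a11 had 128.3, 118, 61.8, 47.3 and 87.3 CPM on plates L1 to L5, against 59.9, 33.5, 23.3 and 26.0 CPM on plates C1 to C4. Plate L4 was below C1, so the groups overlapped, while within each sort period all LY294002 plates were above. The log2 fold change was 1.41 ± 0.22 (edgeR, adjusted p = 0.0493).

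One of the zebrafish receptors for colony-stimulating factor 1, csf1rb, was also higher. It had 75.3, 41.1, 18.7, 11.0 and 21.98 CPM on plates L1 to L5, against 15.5, 19.99, 4.88 and 4.5 CPM on plates C1 to C4. Plates L3 and L4 were below C2, and within each sort period the LY294002 plates were above. Its log2 fold change was 1.78 ± 0.26 (edgeR, adjusted p = 0.0493). Of 22 tested genes of the monocyte and macrophage list, csf1rb was the one called by edgeR (0.231% of all genes were called higher), and the median was -0.09. By DESeq2 2 were higher (csf1rb and spi1b, the gene of a myeloid transcription factor), beside 2.95% of all genes. The log2 fold changes of mfap4 (0.00) and marco (0.27), a scavenger receptor gene of macrophages, did not pass the edgeR test.

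Genes with no name in the files and mitochondrial RNA were among those with the largest fold changes, together with adgrd1 (2.43), which is described below. ENSDARG00000082180 had 1212, 1408, 1040, 1218 and 3134 CPM on plates L1 to L5, against 300.2, 480.2, 185.1 and 260.8 CPM on plates C1 to C4. All LY294002 plates were above all control plates, and L5 was far above the rest. It differed by a log2 fold change of 2.42 ± 0.41 (edgeR, adjusted p = 0.0493).

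The mitochondrial ribosomal RNA gene AC024175.4 made up 9.01, 4.33, 6.34, 2.97 and 5.72% of UMIs on plates L1 to L5, against 3.34, 2.36, 0.938 and 1.03% on plates C1 to C4. Plate L4 was below C1, and within each sort period all LY294002 plates were above. The mean was 5.67% against 1.91%, a difference of 3.76 points (exact permutation test, p = 0.0317). With 1 plate left out the p was at or above 0.05 in 7 of the 9 cases, with differences of 2.93 to 4.44 points over all cases. With so few plates the p of this permutation test takes coarse steps, here 0.0286, 0.0357, 0.0571 or 0.0714. The test did not take the sort period into account. In the edgeR test its log2 fold change was 1.94 ± 0.33 (adjusted p = 0.0498). The 13 mitochondrially encoded genes other than the AC024175 genes made up 3.75% of UMIs in both groups (exact permutation p = 0.984).

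Genes of arterial endothelium and of Notch signaling were among the 10 that fell. The Notch ligand gene dll4 had 64.7, 71.2, 19.9, 22.4 and 31.1 CPM on plates L1 to L5, against 250.3, 315, 54.6 and 40.3 CPM on plates C1 to C4. The plates of days 1 to 4 were higher in both groups, and L1 and L2 were above C3 and C4, so the groups overlapped over all plates but not within a sort period. Over all plates dll4 had a log2 fold change of -1.51 ± 0.24 (edgeR, adjusted p = 0.0493), with -2.06 on days 1 to 4 and -0.96 on days 10 to 12.

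The receptor gene flt1, whose product binds VEGF and limits its signaling, had the same arrangement of plates. It had 21.1, 16.7, 3.06, 2.11 and 4.27 CPM on plates L1 to L5, against 58.4, 50.4, 6.0 and 7.83 CPM on plates C1 to C4, a log2 fold change of -1.38 ± 0.22 (edgeR, adjusted p = 0.0493). The Notch target and feedback regulator nrarpa had 396.7, 417.8, 247.8, 165 and 181.3 CPM on plates L1 to L5, against 723.1, 671.6, 364.2 and 348.5 CPM on plates C1 to C4. Here too L1 and L2 were above C3 and C4. For nrarpa, which was chosen after its values were seen, the log2 fold change was -0.81 ± 0.14 (adjusted p = 0.0498).

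Of the list of EHT and endothelial genes, 30 of 31 were tested. Of these, dll4 and flt1 fell by edgeR (0.0769% of all genes) and none rose. A lower level at an unadjusted p under 0.05 was found for 11, against 8.05% of all genes. By DESeq2 7 were lower (1.69% of all genes) and none higher. The median was -0.49 over all plates, -0.90 on days 1 to 4 and -0.21 on days 10 to 12. The repressor gene hey2, a Notch target of arteries, missed the threshold, with 16.8, 14.6, 14.1, 8.86 and 7.33 CPM on plates L1 to L5, against 44.7, 81.3, 29.6 and 18.6 CPM on plates C1 to C4. All LY294002 plates were below all control plates, and the log2 fold change was -1.60 ± 0.29 (edgeR, adjusted p = 0.0539). The cdh5-high share was also lower on the LY294002 plates of days 1 to 4, as given above. Its part in these sums was not tested beyond the fits within gates, here and below. Within the cdh5-high cells of days 1 to 4 the median of the list was 0.30, with 16 of 30 genes above 0. There 1 was called higher (0.816% of all genes) and none lower (0.46% of all genes). The median was -0.12 without lyz-high cells and -0.50 with gates weighted equally.

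The other genes that fell were not on the list of EHT and endothelial genes. That list does not name every gene of endothelium, so these falls are not set apart from it. The one with the smallest adjusted p was lgals3bpb, a gene of the galectin-3-binding protein family, with 10.8, 12.3, 14.4, 13.5 and 17.1 CPM on plates L1 to L5, against 38.8, 28.2, 45.6 and 65.8 CPM on plates C1 to C4. The groups were well apart in both sort periods, with C2 the lowest of the control plates. This gave a log2 fold change of -1.73 ± 0.19 (edgeR, adjusted p = 0.0165).

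The gene fastkd2, which encodes a mitochondrial RNA-binding protein, had 27.7, 30.7, 24.2, 17.7 and 21.4 CPM on plates L1 to L5, against 43.6, 54.97, 51.2 and 49.9 CPM on plates C1 to C4. The junctional adhesion molecule gene jam2a had 16.5, 18.4, 13.5, 15.6 and 12.8 CPM on plates L1 to L5, against 33.6, 34.98, 31.5 and 26.8 CPM on plates C1 to C4. For both genes the LY294002 plates were all below the control plates in both sort periods, with log2 fold changes of -1.03 for fastkd2 and -1.02 for jam2a. The Ras-association domain gene rassf2a had 63.3, 59.7, 45.9, 48.9 and 42.1 CPM on plates L1 to L5, against 126.4, 124.3, 72.0 and 64.0 CPM on plates C1 to C4, and C4 was just above L1 (log2 fold change -0.78, edgeR). The kinase gene plk2b (-1.37), the sialomucin gene podxl (-1.18) and palm1b (-1.02) also fell, with overlapping plates, and were chosen after their values were seen. For podxl, L1 and L2 were above C3 and C4, as for dll4.

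**Figure D2:**
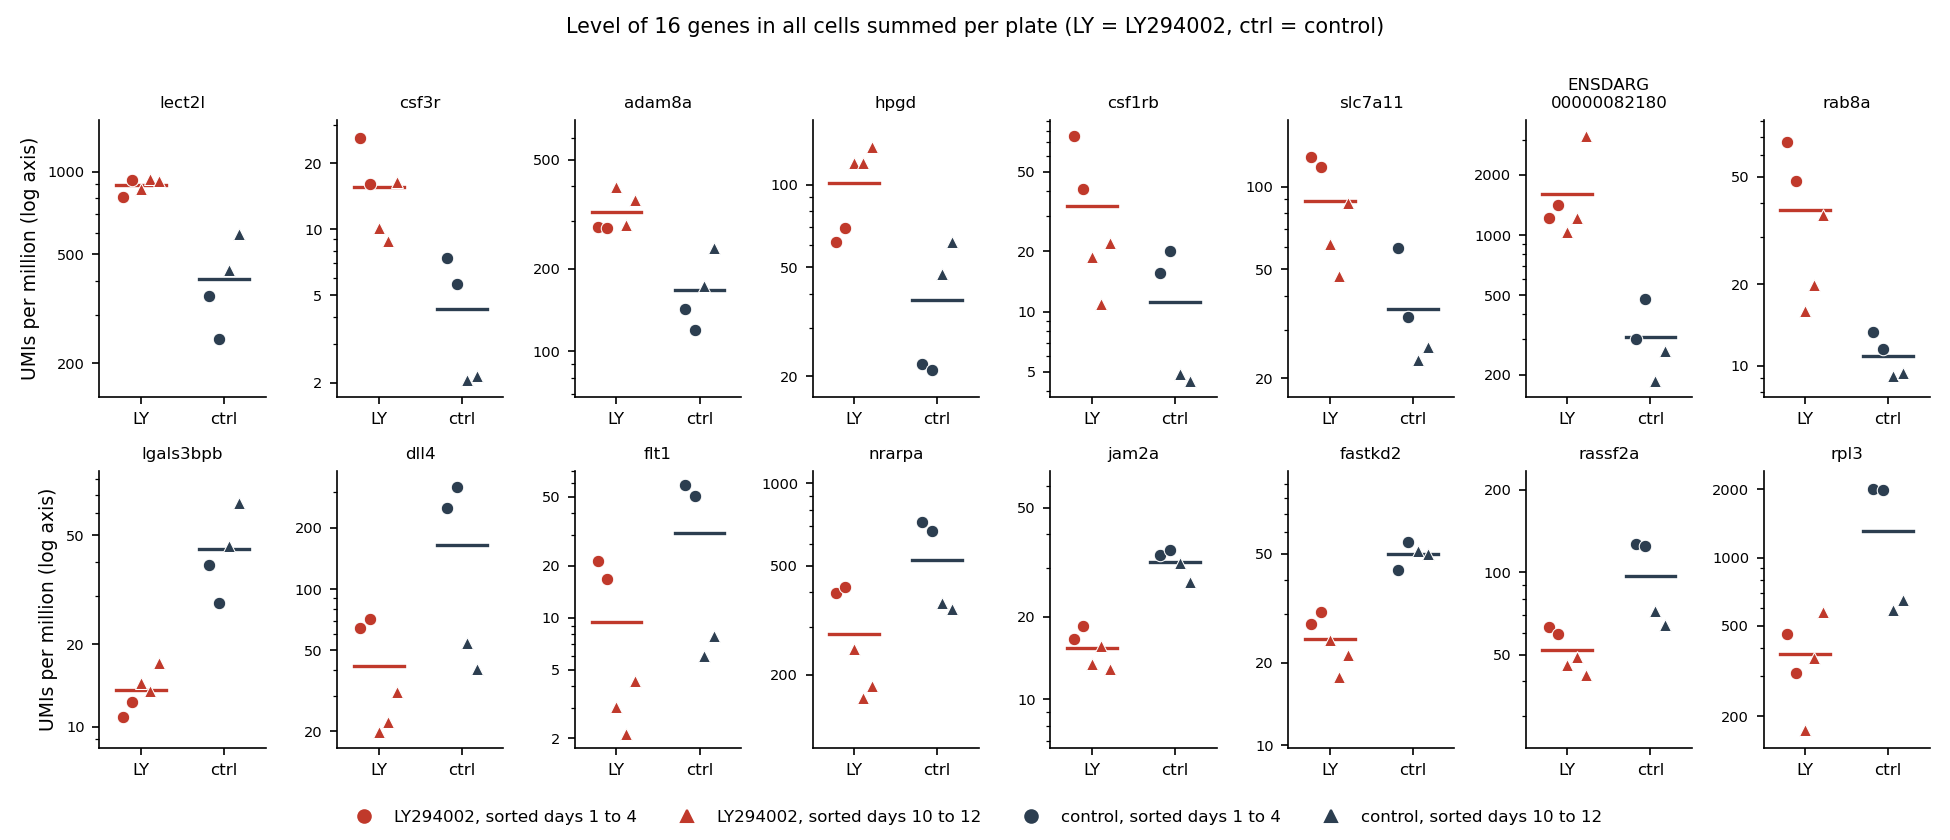
CPM per plate (TMM-scaled, log axes) of 16 genes on LY294002 plates (left) and control plates (right); circles are plates of days 1 to 4, triangles plates of days 10 to 12, and bars the mean. The first 8 genes were higher on LY294002 plates, for instance lect2l with 807.5 to 945.1 CPM against 246.2 to 590.9 CPM, and the others lower, for instance lgals3bpb with 10.8 to 17.1 CPM against 28.2 to 65.8 CPM; rpl3 did not pass the test of levels.

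The share of cells with at least 1 UMI of a gene was compared as a second measure from the same cells. Each cell was thinned to 1500 UMIs, so that depth was equal, and shares were tested with limma on the arcsine of their square root, with the sort period as a term, over 7097 genes. At an adjusted p under 0.05, 111 genes (1.56%) differed, 64 higher (0.902%) and 47 lower (0.662%). The 2 tests shared 26 genes, which is 26 of the 39 genes called by level that could be tested here and 26 of the 111 called by share. The count was 10 without thinning and 3 without the term for sort period. It was 3 without C2, 6 without L2, 7 without L1, 15 without C3, 19 without L4, 46 without C4 and 336 without C1.

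Shares of cells with neutrophil transcripts were higher on LY294002 plates, with 10 of 22 tested genes of the list called higher, against 0.902% of all genes. The lyz-high share of cells was itself 20.1 points higher, as given above, and its part in these shares was not tested. For mpx the share was 55.3, 49.3, 44.7, 63.4 and 60.7% on plates L1 to L5, against 39.1, 19.6, 29.1 and 37.8% on plates C1 to C4. The groups did not overlap (1.78% of all genes tested lay entirely above and 3.42% entirely below), with a difference of 23.3 points (limma, adjusted p = 0.0199). Without thinning, the mean shares were 86.4% and 70.7%. The share of lect2l was 41.2% against 21.5% after thinning, and that of the collagenase gene mmp13a 57.0% against 31.0% (adjusted p = 0.0199). The oxidase subunit gene ncf1 had 56.9% against 35.4% (adjusted p = 0.0198). By level neither mmp13a nor ncf1 passed the edgeR test (adjusted p = 0.1925 and 0.137). The log2 fold change of mmp13a was 2.26 on days 1 to 4 and 0.32 on days 10 to 12.

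The widest gains in share were of genes with no name in the files and of mitochondrial RNA. ENSDARG00000070212 was found in 80.2, 79.1, 75.9, 73.8 and 86.9% of the cells of plates L1 to L5, against 43.6, 34.5, 19.6 and 29.9% of plates C1 to C4. The groups were far apart, and C3 was the lowest plate. The mean difference was 47.3 points (limma, adjusted p = 1.53e-05). For AC024175.17, encoded by the mitochondrial genome, the mean share was 72.1% against 35.4% (adjusted p = 0.0019), and for ENSDARG00000082180 64.1% against 27.5% (adjusted p = 2.33e-04).

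Among genes of the Notch pathway, of which no list was made, nrarpa, her6, hey1, hey2, dll4 and nrarpb were detected in fewer cells. The share of nrarpa was 34.3, 38.3, 23.8, 14.1 and 17.2% on plates L1 to L5, against 52.7, 57.8, 36.2 and 29.4% on plates C1 to C4. The groups overlapped over all plates (L1 and L2 against C4, L2 also against C3) and not within a sort period. The mean difference was -18.5 points (limma, adjusted p = 0.0192). The share of the repressor gene her6 was 17.1% against 33.2% (adjusted p = 0.0192), of hey1 4.68% against 14.3% (adjusted p = 0.0199), of hey2 1.87% against 6.51% (adjusted p = 0.0436) and of dll4 5.86% against 15.7% (adjusted p = 0.0293). For hey1 and hey2, all LY294002 plates were below all control plates. Of the EHT and endothelial list, 4 of 28 tested shares fell (dll4, hey2, dab2 and efna1b), against 0.662% of all genes, and none rose. The cdh5-high share of cells was also lower on the LY294002 plates of days 1 to 4, and its part in these shares was not tested. The genes hey1 and nrarpb, another Notch feedback gene (5.71% against 13.2%), were chosen after their values were seen. The shares of her9 (-10.7 points, adjusted p = 0.0637), notch1b (-4.78 points, adjusted p = 0.334), lfng (-2.70 points, adjusted p = 0.154) and notch3 (-1.79 points, adjusted p = 0.429) did not pass the limma test.

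The share of rpl3, a protein of the large ribosomal subunit, was lower by the widest margin of the shares that fell. It was 37.0, 36.9, 21.8, 34.9 and 47.5% on plates L1 to L5, against 87.7, 93.2, 54.5 and 52.1% on plates C1 to C4. All LY294002 plates were below all control plates, and C1 and C2 were far above C3 and C4. The difference was -36.2 points (limma, adjusted p = 0.0154), and the unthinned means were 79.7% and 96.8%. The level of rpl3 was 458.3, 309, 173.2, 359.5 and 576.3 CPM on plates L1 to L5, against 2001, 1989, 585.1 and 652.4 CPM on plates C1 to C4. Its log2 fold change of -1.51 ± 0.40 did not pass the edgeR test (adjusted p = 0.118). Over the 72 ribosomal protein genes the median log2 fold change was -0.10, and none was called by edgeR. Of them 3 were lower at an unadjusted p under 0.05 (8.05% of all genes) and 3 by DESeq2 (1.69% of all genes).

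**Figure D3:**
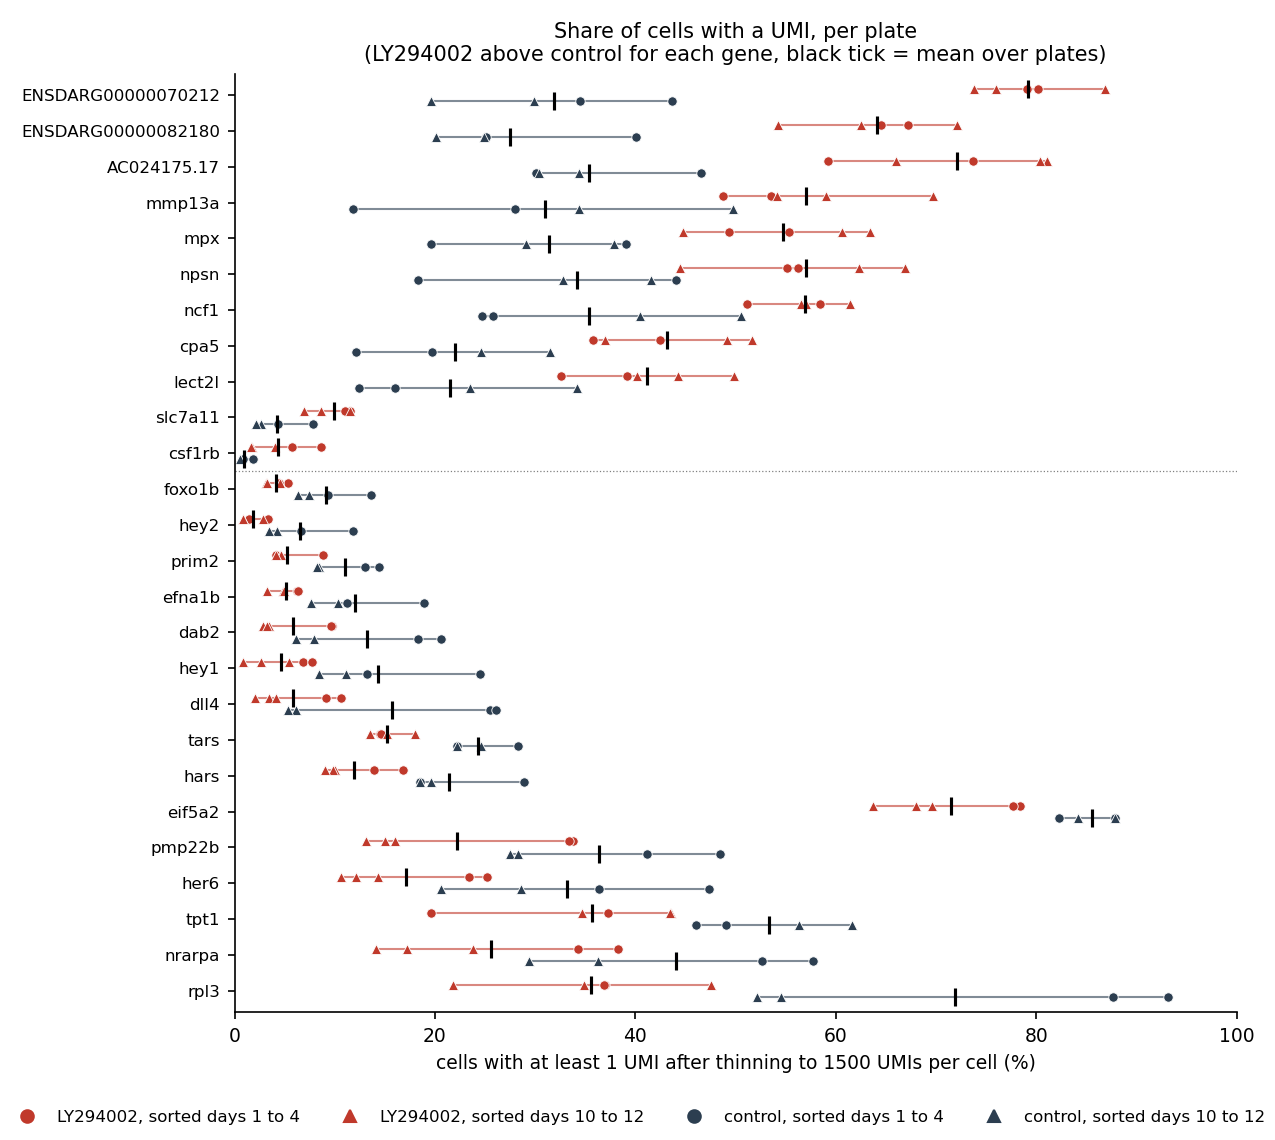
Percent of the cells of each plate with at least 1 UMI after thinning every cell to 1500 UMIs, for 26 genes, with LY294002 plates drawn above control plates for each gene. The genes above the dotted line were found in more cells of LY294002 plates, for instance ENSDARG00000070212 in 73.8 to 86.9% against 19.6 to 43.6%, and those below it in fewer, for instance rpl3 in 21.8 to 47.5% against 52.1 to 93.2%.

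Lists of protein synthesis were examined because it lies downstream of PI3K and mTOR in textbook accounts. They too were drawn up with earlier results of these data known and are not independent evidence of their direction. The median log2 fold change of all genes was -0.02. Of 16 aminoacyl-tRNA synthetase genes, which charge tRNAs with amino acids, none passed the test of levels by edgeR and 5 were lower by DESeq2 (1.69% of all genes). All 16 had a log2 fold change below 0 (51.8% of all genes), 11 with an unadjusted p under 0.05 (8.05% of all genes), and the median was -0.49. It was -0.21 on days 1 to 4 and -0.66 on days 10 to 12, and between -0.37 and -0.71 within each of the 5 gates.

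The histidyl-tRNA synthetase gene hars had 120.6, 133.4, 71.9, 81.4 and 95.9 CPM on plates L1 to L5, against 142.3, 228.3, 160.9 and 154 CPM on plates C1 to C4. All LY294002 plates were below all control plates, although L2 was close to C1. The log2 fold change was -0.75 ± 0.17 (edgeR, adjusted p = 0.0783). The share of cells with hars fell by 9.46 points (limma, adjusted p = 0.0369), and that of the threonyl-tRNA synthetase gene tars by 9.16 points (adjusted p = 0.0392).

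Of the list of nucleolar and ribosome assembly genes, 31 of 32 were tested, none was called by edgeR and 6 were lower by DESeq2 (1.69% of all genes), and 18 were lower at an unadjusted p under 0.05 (8.05% of all genes), with a median of -0.43. Without lyz-high cells this median was -0.18, and with gates weighted equally -0.19. It was 0.05 within cdh5-high cells and between -0.15 and -0.31 within the other gates. Of 38 DNA replication genes none was called by edgeR, 5 were lower by DESeq2 and 13 were lower at an unadjusted p under 0.05, beside the same 1.69% and 8.05% of all genes. Their median was -0.42 over all plates, -0.06 on days 1 to 4 and -0.65 on days 10 to 12. It was 0.02 within lyz-high, -0.07 within mfap4-high, 0.24 within cdh5-high, -0.60 within skin keratin-high and -0.38 within remaining cells. With gates weighted equally it was -0.19. The shares of cells with fen1, a flap endonuclease gene, and prim2, a primase subunit gene, fell by 9.09 points for fen1 and fell by 5.78 points for prim2 (limma, adjusted p = 0.0359 and 0.0385). Of 26 translation factor genes, 8 were lower and none higher at an unadjusted p under 0.05. Their median was -0.28 over all plates, -0.05 on days 1 to 4 and -0.39 on days 10 to 12. By DESeq2 3 were lower, and the shares of all genes are those just given. The share of eif5a2, the gene of a translation elongation factor, fell by 14.1 points (adjusted p = 0.0346), and that of tpt1 by 17.6 points (adjusted p = 0.0231).

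The amino acid stress response list, targets of the transcription factor Atf4, was split. Its member slc7a11 rose, as given above, while 9 of the 25 were lower at an unadjusted p under 0.05 (8.05% of all genes). The median was -0.43. The mitosis list had a median of 0.19, and none of its 40 genes was called by edgeR. Of them 3 were higher at an unadjusted p under 0.05 (7.96% of all genes) and 1 by DESeq2 (2.95% of all genes).

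Components of the PI3K pathway showed no call by edgeR. Of 33 genes, 4 were higher (among them pik3cb and rps6ka1) and pik3c2a lower at an unadjusted p under 0.05. Of all genes, 7.96% were higher and 8.05% lower at that limit. The median was 0.00. DESeq2 called 3 of the 33, all higher (2.95% of all genes). The gene pik3cb, of a catalytic subunit of PI3K, was chosen after its values were seen. It had 101.8, 132.8, 139.5, 131.6 and 145.9 CPM on plates L1 to L5, against 76.2, 51.5, 75.4 and 104.1 CPM on plates C1 to C4. Plate L1 was just below C4, and the other LY294002 plates were above every control plate. On the log2 scale the difference was 0.74 ± 0.17 for pik3cb (edgeR, adjusted p = 0.0816).

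Targets of FoxO and genes of PI3K feedback gave no call by level with edgeR over all plates. Of 37 tested, none was called by edgeR and 2 were higher by DESeq2 (2.95% of all genes). At an unadjusted p under 0.05, 3 were higher and 6 lower, beside 7.96% and 8.05% of all genes. The median was -0.08, with -0.31 on days 1 to 4 and 0.13 on days 10 to 12. Within days 1 to 4 edgeR called 1 of 37 higher, beside 142 of all 13270 genes. In cdh5-high cells it called 2 of 24 higher (0.816% of all genes), and in the other gates none. The FoxO gene foxo1b was found in 4.15% of cells of LY294002 plates and 9.16% of cells of control plates, all LY294002 plates below all control plates (limma, adjusted p = 0.0400). Its level had a log2 fold change of -0.78 ± 0.23 (edgeR, adjusted p = 0.145).

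Genes of HSPCs gave no call by level with edgeR, and 3 of 25 tested were lower by DESeq2 (1.69% of all genes). At an unadjusted p under 0.05, 1 was higher and 7 lower, beside 7.96% and 8.05% of all genes. The median was -0.24. It was 0.07 on days 1 to 4 and -0.40 on days 10 to 12. The progenitor transcription factor gene myb had a log2 fold change of 0.11 (edgeR, adjusted p = 0.749) and was found in 16.1% of cells of LY294002 plates and 13.9% of cells of control plates. The log2 fold change was -0.62 for gata2b (adjusted p = 0.279), a regulator of hemogenic endothelium in zebrafish, and -0.08 for gfi1aa. For meis1b it was -0.76 (adjusted p = 0.199). By share, her6 and pmp22b fell, pmp22b by 14.1 points (limma, adjusted p = 0.0223), and none rose. The share of meis1b was lower by 7.54 points and just missed the threshold (limma, adjusted p = 0.0506).

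Markers of other cell types varied widely between plates. The summed level of the erythroid list was 1079, 499.3, 5800, 14910 and 12540 CPM on plates L1 to L5, against 1258, 2198, 3328 and 2871 CPM on plates C1 to C4. The LY294002 plates of days 10 to 12 were the highest, and L1 and L2 the lowest. None of 24 erythroid genes was called by edgeR. Of them 4 were higher at an unadjusted p under 0.05 (7.96% of all genes) and 2 by DESeq2 (2.95% of all genes). The median was -0.21 on days 1 to 4 and 1.48 on days 10 to 12. The skin list summed to 378.6 to 10170 CPM on LY294002 plates and 680.1 to 6733 CPM on control plates. The muscle list summed to 71.8 to 1901 CPM and 70.6 to 583.2 CPM. The part of these cells in the results was not tested, except that without skin keratin-high cells 111 genes were called.

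**Figure D4:**
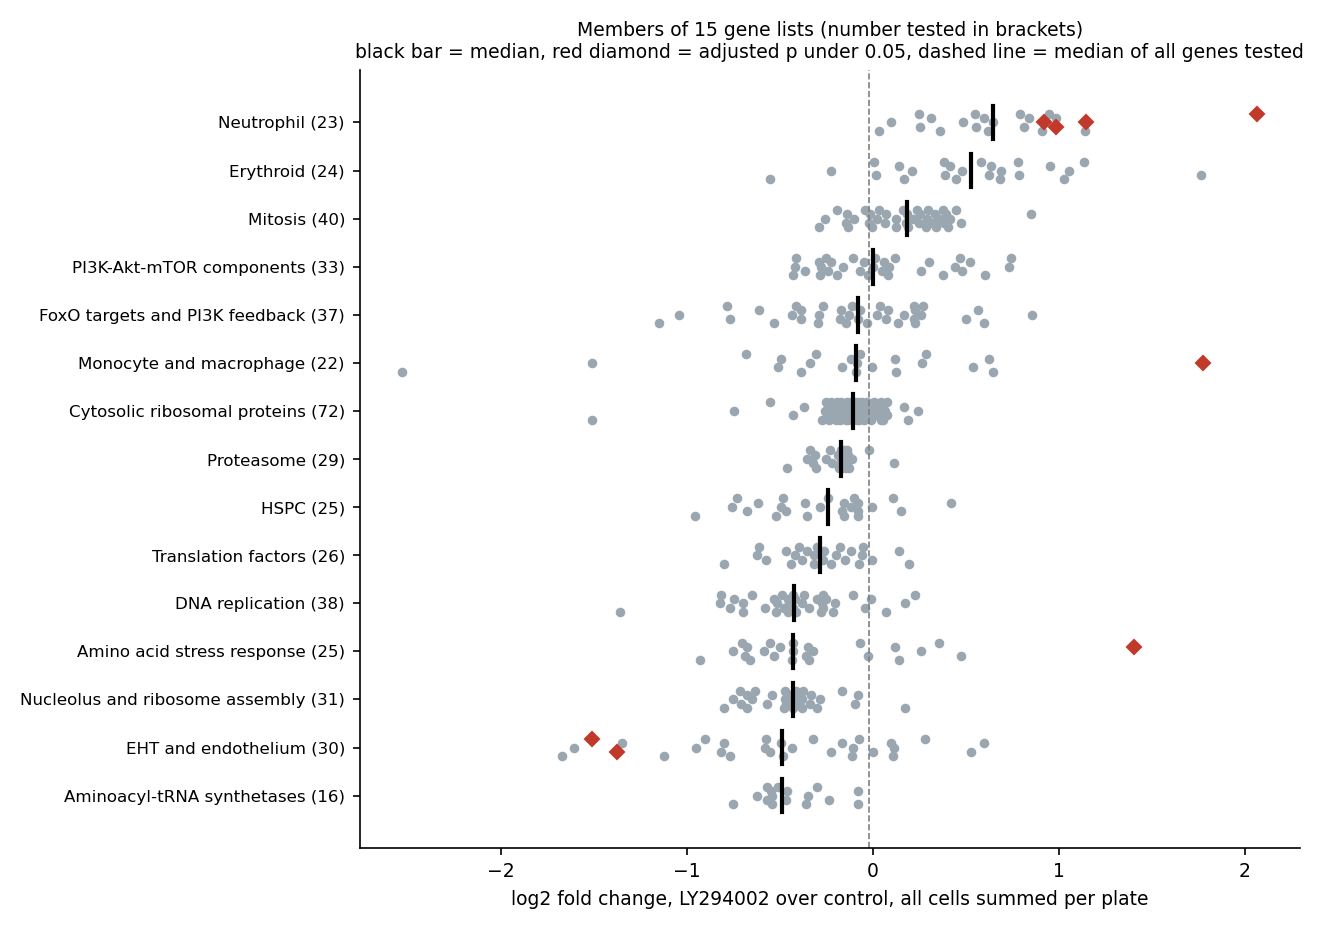
Log2 fold change (LY294002 over control, all cells summed per plate) of the tested genes of 15 lists; bars are the median of a list, red diamonds genes with an adjusted p under 0.05, and the dashed line the median of all genes (-0.02). The neutrophil list had a median of 0.65 and 4 called genes, and the aminoacyl-tRNA synthetases a median of -0.49 and none.

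To ask which differences were present among cells of like marker level, the test was run within gates, on plates with at least 20 cells of the gate. Within lyz-high cells, 10 of 6779 genes (0.148%) were called, 9 higher (0.133%) and 1 lower (0.0148%). The count was 4 without L1, C2 or C3, 5 without L4 or C4, 6 without L2, 17 without C1, 20 without L3 and 30 without L5. AC024175.17, AC024175.4 and ENSDARG00000082180 were among the genes that rose, with log2 fold changes of 2.31, 2.18 and 2.56. So was adgrd1, an adhesion G protein-coupled receptor gene chosen after its values were seen. It had 200.1, 109.2, 35.9, 52.3 and 42.6 CPM on plates L1 to L5, against 34.1, 15.5, 6.49 and 9.17 CPM on plates C1 to C4. All LY294002 plates were above all control plates, L3 only by a small margin over C1, and the log2 fold change was 2.58 ± 0.29 (edgeR, adjusted p = 0.0016). The lower gene was erp44, which encodes a chaperone of the secretory pathway (-1.03, adjusted p = 0.0465).

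Within mfap4-high cells, where L5 had 15 cells and was left out, 6 of 5958 genes (0.101%) were called, 4 higher (0.0671%) and 2 lower (0.0336%), and 3 without L1 or C2. The higher genes were AC024175.4, AC024175.17, ENSDARG00000070212 and ENSDARG00000082180. The lower genes were lgals3bpb and rpl3. In these cells lgals3bpb had 65.8, 57.6, 65.2 and 82.8 CPM on plates L1 to L4, against 163, 154, 300 and 306.5 CPM on plates C1 to C4. The LY294002 plates were narrowly spread and all below the control plates, and the log2 fold change was -1.71 ± 0.20 (edgeR, adjusted p = 0.00591). For rpl3 the log2 fold change was -1.97 ± 0.27 (adjusted p = 0.0161), and its value was below 0 in all 5 gates, passing the test in mfap4-high and cdh5-high cells.

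Within cdh5-high cells, only L1, L2, C1 and C2 had enough cells, 65 from LY294002 plates and 132 from control plates, with 422311 and 846929 UMIs. Here 61 of 4781 genes (1.28%) were called, 39 higher (0.816%) and 22 lower (0.46%), and 209 without L1, 197 without L2, 239 without C1 and 153 without C2. The genes named from this gate were chosen after their values were seen. Several repressor genes of the her family, which Notch signaling activates, were nearly absent from the cdh5-high cells of the LY294002 plates. So were some genes outside that family, given below. The gene her2 had 6 and 17 UMIs on plates L1 and L2, against 279 and 419 UMIs on plates C1 and C2, a log2 fold change of -3.79 ± 0.36 (edgeR, adjusted p = 0.00234). The gene her15.1 had 2 and 10 UMIs, against 164 and 138 UMIs, a log2 fold change of -3.55 ± 0.48 (adjusted p = 0.0116). After thinning, her2 was found in 3.03 and 0% of the cells of L1 and L2 and in 21.5 and 25.4% of the cells of C1 and C2.

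The near-identical genes her4.1, her4.2 and her4.3, between which reads may be split, had no UMIs in cdh5-high cells of L1 and L2. On plates C1 and C2, her4.1 had 39 and 46 UMIs, her4.2 had 24 and 45, and her4.3 had 68 and 39. They passed the edgeR test (adjusted p = 0.0146 for her4.1 and 0.0214 for her4.2 and her4.3). The chemokine receptor gene cxcr4a had no UMI on L1 and L2, against 73 and 146 UMIs on C1 and C2 (adjusted p = 0.0051). Other called genes outside the her family also had no UMI on L1 and L2. On C1 and C2, lyve1a had 67 and 25 UMIs, actc1a 23 and 29, slc1a4 19 and 31, and stmn4l 18 and 23. These UMIs came from few cells, so no fold is given: after thinning, a UMI of her4.1 was found in 6.15 and 5.97% of the cells of C1 and C2, and one of cxcr4a in 6.15 and 13.4%. The 0 of 65 LY294002 cells allow up to 4.62% of cells with a UMI, by counting error only, and set no limit on cells that express the gene.

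Other Notch genes examined in cdh5-high cells did not pass the test. The repressor genes hey1 (log2 fold change -4.21 ± 0.86, edgeR, adjusted p = 0.0526), hey2 (-3.43 ± 0.70, adjusted p = 0.0541) and her12 (-3.54 ± 0.78, adjusted p = 0.0649) had few UMIs on L1 and L2, at most 6 on a plate. Log2 fold changes were -1.02 for nrarpb (adjusted p = 0.121), -0.68 for her9 (adjusted p = 0.206), -0.30 for jag2b and 0.27 for lfng. They were -1.27 ± 0.31 for dll4 (edgeR, adjusted p = 0.0823), -0.47 for notch1b, -0.54 for her6 (adjusted p = 0.246) and -0.12 ± 0.20 for nrarpa (adjusted p = 0.833). After thinning, nrarpa was found in 90.91 and 90.62% of these cells on L1 and L2, against 73.85 and 82.09% on C1 and C2. The stress transcription factor gene atf3 rose, with 490 and 375 UMIs on L1 and L2, against 163 and 186 UMIs on C1 and C2 (2.47 ± 0.28, adjusted p = 0.0051). So did sele, the gene of the adhesion molecule E-selectin of activated endothelium, with 230 and 285 UMIs, against 120 and 106 UMIs (2.29 ± 0.25, adjusted p = 0.00426). The chemokine gene cxcl18b had 68 and 61 UMIs, against 5 and 1 UMIs. Of 30 immediate early and dissociation genes, 26 had a log2 fold change above 0 in cdh5-high cells (2316 of all 4781 genes). Their median was 0.58, with 6 called higher and 1 lower, beside 0.816% and 0.46% of all genes. Of 9 interferon and inflammation genes, 7 were above 0 and 3 were called higher, with a median of 1.35. Over all cells of all 9 plates edgeR called no gene of either list (medians -0.01 and 0.23). Over all cells of days 1 to 4 it called 4 immediate early and dissociation genes higher and 1 lower (median 0.09). It called 5 interferon and inflammation genes higher and 2 lower (median 0.72), beside 142 and 54 of all 13270 genes. The immediate early median was 0.30 in lyz-high, 0.36 in mfap4-high, 0.26 in remaining and -0.21 in skin keratin-high cells. Plates L1, L2, C1 and C2 were sorted on days 1 and 4, so the values of the LY294002 plates carry the later sort day.

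Within skin keratin-high cells, compared on L3, L4, C3 and C4, 42 of 5054 genes (0.831%) were called, 39 higher (0.772%) and 3 lower (0.0594%), and 162 without L3, 135 without L4, 108 without C3 and 110 without C4. Within the remaining cells none of 10213 genes was called, 1177 had an unadjusted p under 0.05 (11.5%), and 261 were called without C1 and 2 without L3 or C2. DESeq2 was not run within gates. Of the genes called over all cells, 15 of the 17 higher ones with a value in cdh5-high cells kept their direction there, as did 12 of 13 higher and 1 of 3 lower ones in skin keratin-high cells; those that did not were alox5ap (-0.03) and syne2b (-0.24) in cdh5-high cells, and lect2l (-0.77), dll4 (0.07) and nrarpa (0.04) in skin keratin-high cells.

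**Figure D5:**
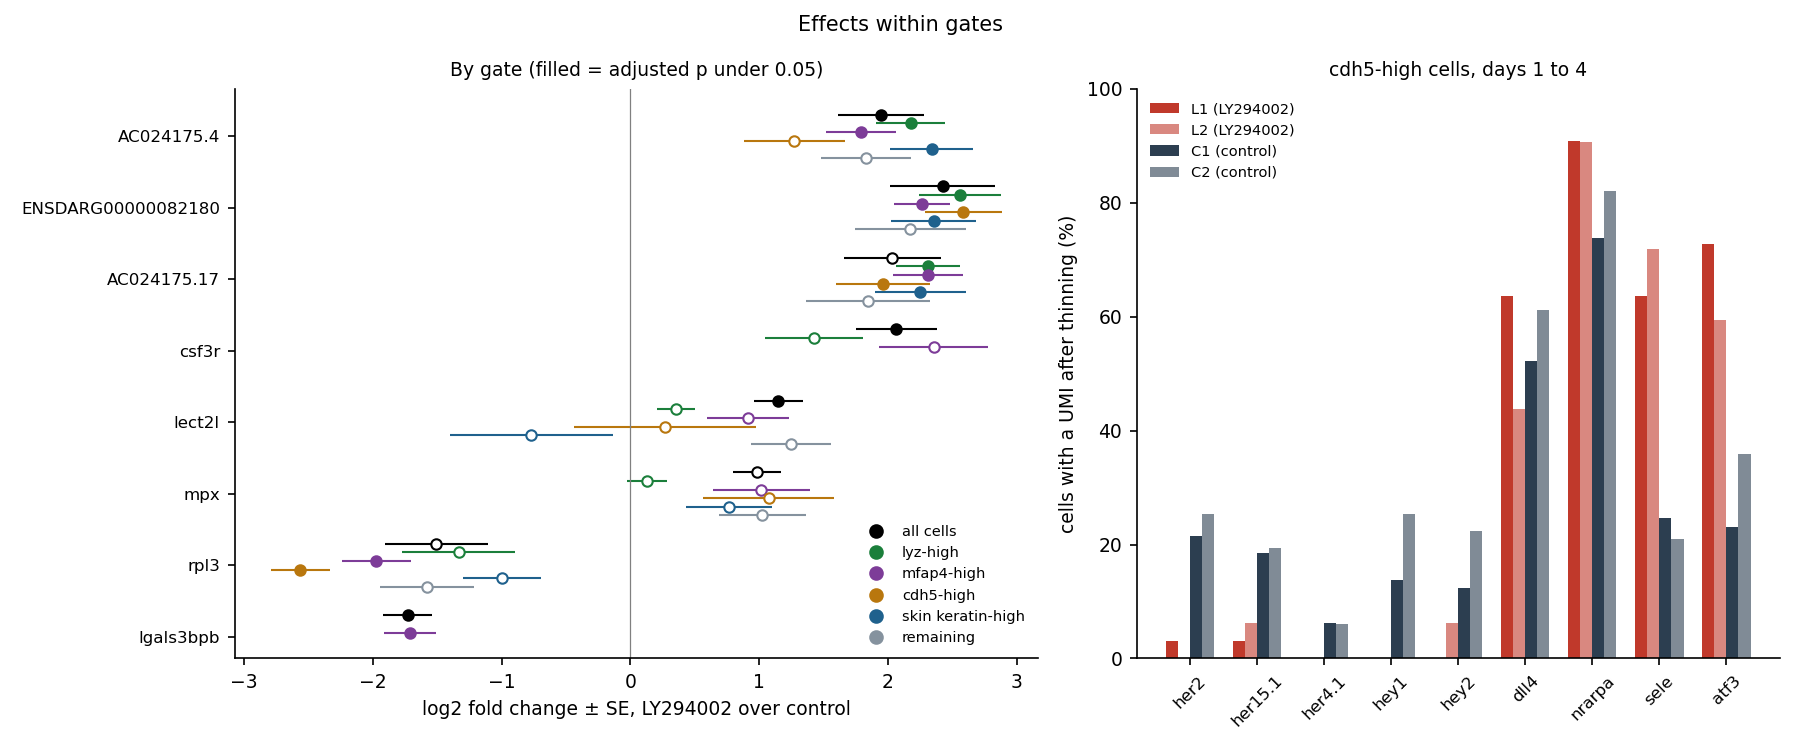
Left: log2 fold change ± standard error within each gate for 8 genes, filled where the adjusted p was under 0.05. Right: percent of cdh5-high cells with at least 1 UMI after thinning on plates L1 and L2 (left in each pair) and C1 and C2 (right), with her2 at 3.03 and 0% against 21.5 and 25.4%; ENSDARG00000082180 was above 2 in every gate and rpl3 below 0 in every gate.

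The effect of LY294002 differed between the sort periods for some genes. A test of the difference itself (edgeR interaction term) called 39 of 12996 genes (0.3%), 13 (0.1%) with a more positive and 26 (0.2%) with a more negative log2 fold change on days 10 to 12. The count was 1 without L2, L4, C3 or C4, 2 without L1 or C2, 22 without C1, 72 without L5 and 106 without L3. The gene ppp1r10, which encodes a regulatory subunit of a protein phosphatase, had 293.5 and 262 CPM on L1 and L2, against 120.9 and 123.8 CPM on C1 and C2. On days 10 to 12 it had 59.4, 53.2 and 57.4 CPM on L3, L4 and L5, against 166.7 and 145.8 CPM on C3 and C4. The LY294002 plates were thus all higher in one period and all lower in the other, with log2 fold changes of 1.19 and -1.45 (difference -2.65 ± 0.21, adjusted p = 0.00315).

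The NF-kappaB inhibitor gene nfkbiab had 1117 and 1065 CPM on L1 and L2, against 242.9 and 210.5 CPM on C1 and C2. On days 10 to 12 it had 1016, 823.1 and 740.5 CPM on L3, L4 and L5, against 783.6 and 976 CPM on C3 and C4. The control plates C1 and C2 were low, while the later plates overlapped (log2 fold changes 2.28 and -0.02, difference -2.30, adjusted p = 0.0224). The oxidase gene ncf1 had log2 fold changes of 1.70 on days 1 to 4 and 0.31 on days 10 to 12 (difference -1.39, adjusted p = 0.0491).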

How the data were processed

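The authors sorted single cells into plates, made SORT-seq libraries, mapped reads to the Zv9 transcriptome (BWA, per the submitters' processing notes) and deposited the UMI counts of each well and gene after a correction for collisions. These deposited estimated counts were rounded to whole numbers in each well before summing and are not normalized. Depth per plate is given above. Spike-ins were left out. Of 25512 gene IDs, 19405 were given a symbol. All wells with at least 1500 UMIs were used, although labels of the later plates say that the study did not use every cell. No doublet caller was used, and no cell was identical between plates.

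Sums per plate were tested with edgeR 4.0.16 (filterByExpr, TMM factors, sort period as a term), and shares with limma 3.58.1 for genes in at least 2% of cells on average, in R 4.3.3. The code of both tests was checked on simulated data with known changes. Those data held no change of cell makeup and no tie of sort day to treatment, so the check does not cover these limits. DESeq2 1.42.0 was an alternative. Exact permutation tests and sums used Python 3.11.15 with scipy 1.17.1. Library totals in place of TMM factors moved the median log2 fold change of all genes to -0.12, beside -0.02.

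Named genes were, in each direction, the 12 called genes with the largest change, at least 20 CPM and plates that did not overlap, up to 4 called genes per list, genes named by the study and 3 per direction for the sort periods. Some genes the rule names are not reported here. Other genes were chosen after their values were seen. Members and lists were chosen with earlier results of these data known.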

Additional observations from a re-analysis of the deposited data

Results flagged for a closer look

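In 184 groups of plates tested, 7 had 1 plate far from the others; chance gives about 1 in 20 groups. Plate L5, which had the fewest cells, was the highest of the LY294002 plates for ENSDARG00000070212 (6850 CPM), ENSDARG00000082180 (3134 CPM), ENSDARG00000096145 (2827 CPM) and the myeloid transcription factor gene spi1b (415.1 CPM). Plate C1 was apart from the other control plates for adgrd1 (33.6 CPM, the highest), eif5a2 (1379 CPM, the lowest) and tmed1b (236.2 CPM, the highest).

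The log2 fold change between LY294002 and control plates varied between sort periods by the edgeR interaction test for 7 named genes. Sort day is tied to treatment on days 1 to 4, so these values are not of treatment alone. The log2 fold change of days 10 to 12 minus that of days 1 to 4 was -2.65 for ppp1r10, -2.53 for BCL2L12, -2.30 for nfkbiab and -1.39 for ncf1. It was 3.88 for ENSDARG00000087504, 2.004 for si:dkey-56m19.5 and 4.86 for vsg1. For vsg1, a gene of vessels, the level was 2.85 and 4.66 CPM on L1 and L2, against 34.01 and 78.4 CPM on C1 and C2, and 3.66 to 5.20 CPM on L3 to L5, against 2.63 and 2.15 CPM on C3 and C4.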

How the results depend on the processing

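Of the 40 genes called by level, all kept their direction under every alternative over all cells (within gates, 5 values changed sign), and 409 of 953 values kept the call. The count was 602 by DESeq2, 71 with DESeq2 size factors, 146 with library totals, 606 without a filter, 0 without the sort period, 196 within days 1 to 4, 2 within days 10 to 12, 3 with plates of the same sort days summed, 6 from 1000 UMIs per cell, 96 with cells thinned, 0 without lyz-high cells, 111 without skin keratin-high cells, 0 with gates weighted equally and 0 to 726 with 1 plate left out. Counts of shares were 10 without thinning, 3 without the sort period and 3 to 336 with 1 plate left out. Of the 50 named shares called, none changed sign. Leaving out 1 plate (added after seeing the data for gates and periods) gave 4 to 30 genes in lyz-high, 3 to 9 in mfap4-high, 153 to 239 in cdh5-high, 108 to 162 in skin keratin-high and 0 to 261 in remaining cells, and 1 to 106 for the difference between periods; where 1 plate was left in a group, it was assumed to vary like the other group. The log2 fold change of ppp1r10 was 1.19 within days 1 to 4, beside -0.30 over all plates. The mfap4-high difference was 0.387 points with limits doubled and -1.95 to 0.255 with 1 plate left out (above 0 without L5), and the skin keratin-high difference -4.17 to 2.97 (above 0 without L1, at 0.00463, and without C3). With 1 plate left out, the difference in mitochondrial UMIs was 3.11 to 4.56 points, and in AC024175.4 2.93 to 4.44 points, often with p above 0.05. No paired analysis was possible because the labels give the plates no shared replicate numbers. Pooled embryos, 4 and 5 plates, and sort days tied to treatment limit every value, and genes of few cells are limited by depth.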

Other observations

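Genes called in the skin keratin-high cells of days 10 to 12 were chosen after their values were seen, and no difference from the other gates was tested. The gene odc1, the first enzyme of polyamine synthesis, had 209.1 and 283.2 CPM on L3 and L4, against 683.1 and 685.8 CPM on C3 and C4, a log2 fold change of -1.48 ± 0.29 (edgeR, adjusted p = 0.0283). The gene s100a10b, of a calcium-binding protein family, had 687.7 and 1090 CPM on L3 and L4, against 291.4 and 328.8 CPM on C3 and C4 (1.52 ± 0.30, adjusted p = 0.0316). The heat shock gene hsp70l had 405.6 and 2648 CPM on L3 and L4, against 248.3 and 166 CPM on C3 and C4, so that L4 held most of its difference (2.85 ± 0.59, adjusted p = 0.0378).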
